A study of Mus musculus with 40 samples.

Results

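Ovariectomized female mice that received estradiol were set against intact female mice, both after saline, to ask what still differed in the nucleus accumbens when the main ovarian hormone was replaced. There were 5 mice in each group, 10 of the 40 mice of the series, chosen by the group code in the column names of the deposited table. All were C57BL/6J females, handled for 3 days before the experiment, and left and right accumbens punches were taken after withdrawal, with 1 RNA library per mouse. The intact saline mice carried the numbers 64, 65, 66, 77 and 78, and the ovariectomized estradiol saline mice the numbers 122, 124, 130, 132 and 138. They are called intact and estradiol mice here. Another saline group of 5, ovariectomized with placebo (121, 123, 129, 131 and 137), had the same surgery without the hormone, and 3 groups of 5 female mice of the same conditions received cocaine. Age, estrous stage in the intact mice, the dose and route of estradiol and the time since surgery are not given in the sources used here. Intact mice carried numbers from 61 to 80 and ovariectomized mice from 121 to 140, so surgery, hormone treatment and cohort cannot be told apart in estradiol against intact mice. The labels do not say that the mice of a group came from separate cages or litters, and p-values measure the spread between these libraries.

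Estradiol, made mainly by the ovary, acts through the nuclear receptors encoded by Esr1 and Esr2 and a membrane receptor encoded by Gper1, and ovariectomy removes the cyclic supply that an implant or injection replaces at another level and rhythm. The nucleus accumbens is built mostly of GABA-releasing projection neurons that carry D1 or D2 dopamine receptors, among glia and a dense capillary bed. Brain capillary endothelium forms the blood-brain barrier through tight junctions and selective transporters, and its growth and stability depend on VEGF and angiopoietin signalling; estradiol is known to act on endothelium in many tissues.

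The libraries held the markers of their labelled tissue. Penk, the enkephalin precursor of D2 neurons, lay at 1607 to 2315 TPM in intact and 1511 to 2416 TPM in estradiol mice (TPM, a length-adjusted share of all transcripts in a library). Xist, the RNA of the inactive X chromosome, lay at 80.6 to 308 and 85.6 to 290 TPM. Y-linked transcripts were listed at 0 in the estradiol mice apart from 0.0312 TPM of Kdm5d in mouse 130, whereas every intact mouse had some. Intact mouse 77 had 3.46 TPM of Ddx3y and 3.68 TPM of Eif2s3y. The other 4 intact mice had 0.109 to 0.516 and 0.147 to 0.515 TPM. Between 15525 and 17191 genes were above 0 in the intact and between 16659 and 17012 in the estradiol libraries. The 79 cytosolic ribosomal protein genes took 7.78% to 8.31% of TPM in 4 intact libraries and 14.2% in intact mouse 64, against 9.29% to 13.0% in the estradiol mice. The group means were 9.28% ± 2.78 and 10.5% ± 1.48 (SD, n = 5), a difference of 1.26 percentage points (exact two-sided permutation p = 0.397; 0.397 adjusted over 2 tests). The median tested gene lay 0.16 lower on the log2 scale in estradiol mice (4.23 ± 0.14 against 4.40 ± 0.26; exact two-sided permutation p = 0.230, adjusted 0.397). Without intact mouse 64 these differences were 2.50 points (exact p = 0.0159) and -0.28 (exact p = 0.00794), so both rest on whether that library is kept.

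**Figure D1:**
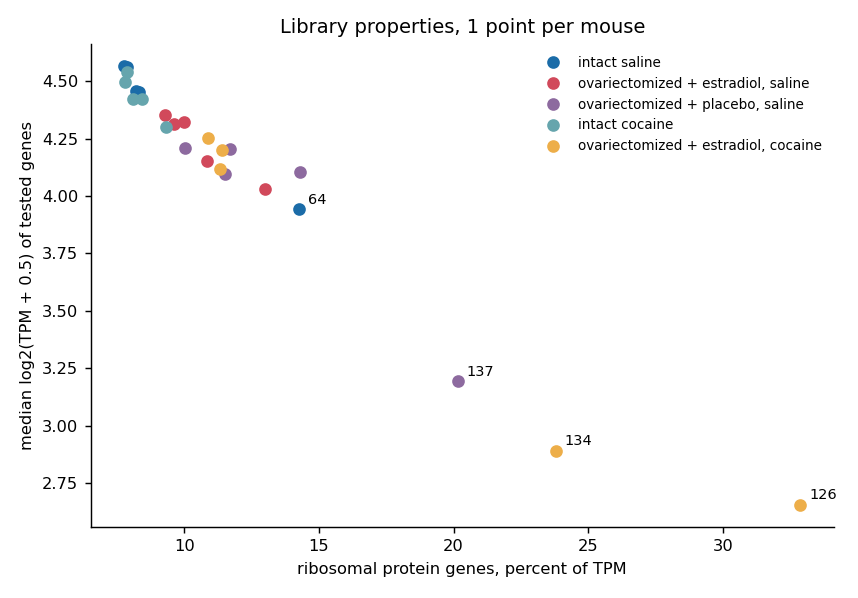
Each point is 1 mouse: the percent of TPM in cytosolic ribosomal protein genes (x axis) against the median log2(TPM + 0.5) of the tested genes (y axis), colored by group. Intact saline mouse 64, at 14.2%, lies to the right of the other 4 intact saline mice, and estradiol cocaine mice 126 and 134 lie farthest down.

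No single gene passed the test in estradiol against intact mice. Of 15196 genes tested by limma, 0 had an adjusted p under 0.05 (0%), and the smallest adjusted p was 0.183. At an unadjusted p under 0.05 there were 622 genes (4.09%), 518 of them lower (3.41%) and 104 higher (0.684%) in estradiol mice. The median log2 difference over all tested genes was -0.11, with 9926 genes below 0 (65.3%) and 5270 above (34.7%), and the median standard error of a gene was 0.33. The 2 groups of 5 did not overlap at all for 196 genes that lay lower (1.29%) and 50 that lay higher (0.329%). Gene lists are therefore described by counts, by values and by a relative median, which is the list's median log2 difference less that of every gene tested (-0.11). The spread in this limma fit was taken from all 8 groups of the series. With only these 2 groups fitted by limma, 0 genes were called and the smallest adjusted p was 0.107. In that fit 1764 genes had an unadjusted p under 0.05, so the unadjusted count depends on the groups fitted. With limma's array weights, which give less weight to libraries far from their group, 2251 genes were called, 2002 of them lower (13.2%), so the count depends on how unevenly the libraries are weighted.

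**Figure D2:**
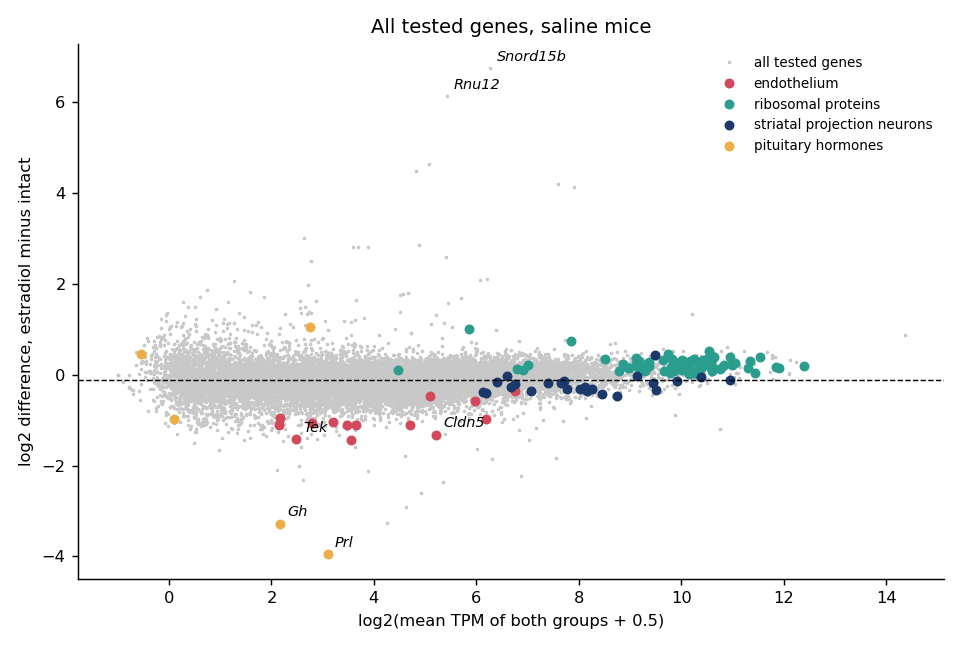
Log2 difference of estradiol minus intact saline mice (y axis) against log2 of the mean TPM of both groups plus 0.5 (x axis) for the 15196 tested genes in grey, with 4 lists colored. The dashed line is the median of all genes, -0.11; the endothelial markers lie below it, while Snord15b and Rnu12 stand at the top and Prl and Gh at the bottom.

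Endothelial markers had the lowest relative median of the 38 gene lists at the main settings. Of 14 members, 14 were tested, 14 lay below 0, and 12 had an unadjusted p under 0.05, against 3.41% of all genes that were lower by that rule. The relative median was -0.97, the log2 differences ranged from -1.44 to -0.35, and 4 members (Ly6c1, Esam, Tek and Slc2a1) had groups that did not overlap, against 1.29% of all genes. Limma's adjusted p was above 0.05 for each of the 14. Summed over the list, the level was 348 to 566 TPM in intact and 236 to 344 TPM in estradiol mice, so the lowest intact mouse, 64, lay just above the highest estradiol mouse, 122. In a tissue punch, fewer endothelial cells and less of these RNAs per cell cannot be told apart.

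Cldn5, the tight junction protein of brain capillaries, had 42.8, 55.0, 49.9, 49.0 and 56.1 TPM in the intact mice and 46.1, 17.6, 18.3, 11.2 and 18.8 TPM in the estradiol mice. Of the estradiol mice, 122 alone reached the intact range, and the other 4 lay below every intact mouse. The log2 difference was -1.32 ± 0.36 (SE; 95% interval -2.04 to -0.60; limma adjusted p = 0.680). Esam, an adhesion molecule of endothelial cell contacts, had 10.0, 16.1, 16.1, 14.1 and 17.3 TPM in intact mice. In estradiol mice it had 7.44, 6.22, 5.80, 5.83 and 7.20 TPM, all below every intact mouse (-1.10 ± 0.31, limma adjusted p = 0.729). Ly6c1, a surface protein of capillary endothelium in the mouse, had 68.2, 88.7, 94.7, 119 and 104 TPM in intact and 62.1, 31.0, 59.6, 42.0 and 50.2 TPM in estradiol mice. These groups also did not overlap, with intact mouse 64 and estradiol mouse 122 the nearest to each other (-0.97 ± 0.26, limma adjusted p = 0.630). Ly6c1 has a near-identical neighbour, Ly6c2, so the split of fragments between them is uncertain.

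The receptors for vessel growth signals also lay lower in estradiol mice. Tek, the angiopoietin receptor TIE2, had 3.72, 7.11, 8.67, 10.5 and 8.40 TPM in intact and 3.55, 2.00, 1.61, 2.45 and 2.92 TPM in estradiol mice. The ranges did not meet, and the mean was 3.06 times as high in intact mice (-1.41 ± 0.41, limma adjusted p = 0.729). Flt1, a VEGF receptor that binds the ligand tightly and limits its action, averaged 16.7 ± 5.67 TPM in intact and 5.63 ± 1.48 TPM in estradiol mice (SD, n = 5; -1.44 ± 0.45, limma adjusted p = 0.887), with intact mouse 64 (7.21 TPM) inside the estradiol range of 3.37 to 7.30 TPM. Kdr, the main signalling VEGF receptor, averaged 5.62 ± 1.94 and 2.28 ± 0.63 TPM (-1.09 ± 0.41). Here too intact mouse 64, at 2.36 TPM, was the one intact mouse within the estradiol range.

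Junction and barrier genes followed with smaller or more variable differences. Pecam1, the adhesion molecule CD31, averaged 12.1 ± 4.5 TPM in intact and 5.22 ± 1.05 TPM in estradiol mice (-1.04 ± 0.46), with intact mouse 64 at 4.09 TPM against 13.7 to 14.5 TPM in the other 4. Cdh5, VE-cadherin, averaged 5.49 ± 1.78 and 2.51 ± 0.67 TPM (-0.96 ± 0.44). Of the transporters, Abcb1a, the drug efflux pump P-glycoprotein, averaged 17.3 ± 8.15 and 6.91 ± 2.31 TPM (-1.11 ± 0.53). Slco1a4, an organic anion carrier, averaged 35.9 ± 13.6 and 15.5 ± 3.98 TPM (-1.11 ± 0.46), and Slc2a1, the glucose carrier GLUT1, averaged 74.9 ± 13.6 and 49.4 ± 6.16 TPM (-0.58 ± 0.31). The Slc2a1 groups did not overlap, 54.6 to 91.1 against 39.8 to 54.3 TPM, although its unadjusted limma p was 0.0650. Emcn, the sialomucin endomucin, lay at 8.97 ± 3.41 and 3.85 ± 1.05 TPM (-1.06 ± 0.38), Egfl7, a protein that endothelium secretes, at 39.2 ± 5.25 and 28.1 ± 3.80 TPM (-0.47 ± 0.18), and Itm2a at 119 ± 25.3 and 96.4 ± 36.5 TPM (-0.35 ± 0.32). Itm2a was the member nearest to no difference, and its groups overlapped widely.

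The endothelial difference was as large without the libraries that stand apart. Its relative median was -1.03 without estradiol mouse 122, -1.13 without intact mouse 64, -1.21 without both and -0.90 without intact mouse 77. It was -0.92 with the ribosomal protein share of each library in the model. All 14 members lay below 0 without mouse 122, without mouse 64, without both and with the ribosomal share in the model. Leaving out each of the 10 libraries in turn gave -1.13 to -0.88, with 8 to 13 members at an unadjusted p under 0.05. With array weights 14 of 14 were called by limma, against 13.2% of all genes called lower, and with the ribosomal share in the model 1 was called, Esam.

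**Figure D3:**
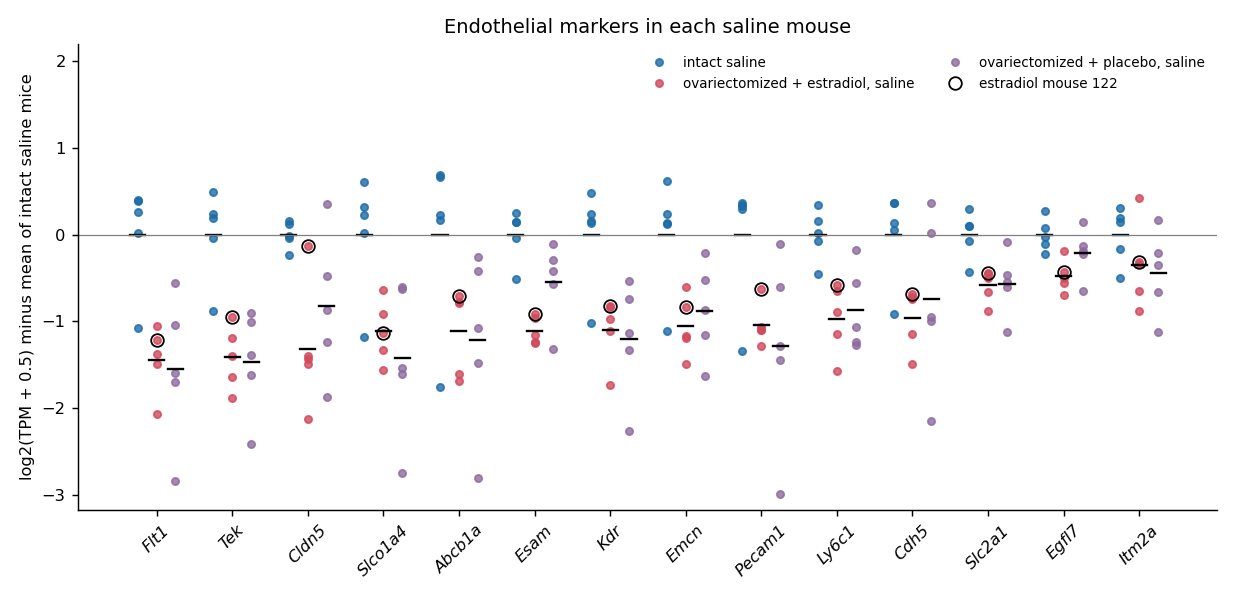
The y axis is log2(TPM + 0.5) minus the mean of the intact saline mice, for each endothelial marker on the x axis and each saline mouse as a point (blue intact, red estradiol, purple placebo, black bars group means, n = 5). The red means lie below 0 for all 14 markers, from -1.44 to -0.35, and the ringed estradiol mouse 122 lies at the intact level for Cldn5.

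The promoters of the endothelial genes are shown because the list lay lower together. RefSeq promoters (GRCm38.p6, 250 bases before to 50 after the transcript start) were matched by symbol for 11 of the 14 genes. The 6-base sequence CAGGAA, a core bound by ETS factors, the transcription factor family that marks endothelial genes, was searched on both strands, where it reads TTCCTG, and stands in capitals. Tek lies on the plus strand (chr4:94739039-94739338), as do Emcn (chr3:137340828-137341127) and Cldn5 (chr16:18776597-18776896).
Tek: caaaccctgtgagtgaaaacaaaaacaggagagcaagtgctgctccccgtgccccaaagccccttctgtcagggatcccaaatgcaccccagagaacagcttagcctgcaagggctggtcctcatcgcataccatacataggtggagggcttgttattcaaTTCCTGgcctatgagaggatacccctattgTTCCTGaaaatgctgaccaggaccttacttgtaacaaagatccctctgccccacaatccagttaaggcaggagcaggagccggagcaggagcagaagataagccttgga
Emcn: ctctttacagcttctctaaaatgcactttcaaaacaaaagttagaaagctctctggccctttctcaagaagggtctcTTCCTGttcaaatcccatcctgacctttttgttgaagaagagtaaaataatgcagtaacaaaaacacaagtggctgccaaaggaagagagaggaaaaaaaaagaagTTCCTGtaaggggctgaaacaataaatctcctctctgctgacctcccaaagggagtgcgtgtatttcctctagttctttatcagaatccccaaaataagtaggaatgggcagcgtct
Cldn5: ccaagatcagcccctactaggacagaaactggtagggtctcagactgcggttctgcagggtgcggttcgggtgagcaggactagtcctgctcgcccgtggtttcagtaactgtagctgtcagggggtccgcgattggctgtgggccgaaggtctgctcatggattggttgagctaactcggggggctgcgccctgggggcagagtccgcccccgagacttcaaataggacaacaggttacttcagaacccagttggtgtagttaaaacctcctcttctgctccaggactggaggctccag
The Tek and Emcn promoters each held 2 matches and that of Cldn5 held none. A match was present in 4 of the 11 endothelial promoters and in 30.4% of the 27025 mouse promoters of the same length. The palindromic estrogen response element was in 0 of the 11 and in 0.0666% of all promoters. The nuclear receptor sequence AGGTCA, which overlaps one arm of that element, was in 2 of the 11 and in 16% of all promoters. A match is a run of letters and not a measured binding site.

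Other cells of the vessel wall showed less. For pericyte, smooth muscle and meningeal markers the relative median was -0.20, with 8 of 14 below 0 against 65.3% of all genes and 2 at an unadjusted p under 0.05. Both of these are pericyte genes. Rgs5, a G protein regulator, had 26.6, 72.2, 79.9, 76.6 and 67.8 TPM in intact and 38.0, 21, 26, 35.7 and 38.6 TPM in estradiol mice (-0.95 ± 0.46). Apart from mouse 64, every intact mouse lay above every estradiol mouse. Cspg4, the NG2 proteoglycan of pericytes and oligodendrocyte precursors, averaged 7.79 ± 2.35 and 4.10 ± 1.27 TPM (-0.83 ± 0.32). Among the 6 members above 0, Lum and Slc6a13, fibroblast genes of the meninges, were picked after their values were seen. Lum had the highest log2 difference of the list, with means of 1.13 TPM in intact and 4.01 TPM in estradiol mice (0.94 ± 0.70). Slc6a13 averaged 4.63 and 10.4 TPM (0.80 ± 0.64). The other fibroblast genes of the list are not reported here, so these values give no direction for fibroblasts. Among genes outside the list, Car4, a carbonic anhydrase of capillary surfaces, lay at 16.6 ± 4.56 and 7.02 ± 2.77 TPM (-1.21 ± 0.30; limma adjusted p = 0.481). Gkn3, which is found in arterial endothelium of the mouse brain, lay at 5.52 to 10.1 TPM in intact and 1.24 to 4.65 TPM in estradiol mice, with no overlap (-1.27 ± 0.36; limma adjusted p = 0.729).

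Estradiol's own receptors and known target genes gave few differences. Esr1, estrogen receptor alpha, had 2.71, 3.55, 2.1, 5.27 and 2.33 TPM in intact, 0.931, 2.09, 1.38, 3.82 and 0.542 TPM in estradiol and 0.474, 0.543, 1.3, 1.43 and 0.466 TPM in placebo mice. Intact and placebo mice did not overlap, and estradiol mice overlapped both. The means were 3.19 ± 1.28, 1.75 ± 1.29 and 0.843 ± 0.48 TPM, in the order intact, estradiol, placebo. Estradiol minus intact was -0.83 ± 0.40 (limma adjusted p = 0.999), placebo minus intact -1.47 ± 0.40 (limma adjusted p = 0.247) and estradiol minus placebo 0.64 ± 0.40; these differences share groups and are not independent. Pgr, the progesterone receptor and a known estradiol target, had 8.99, 10.6, 12.3, 14.5 and 11.7 TPM in intact and 12.3, 11.0, 14.0, 15.6 and 13.5 TPM in estradiol mice. The groups overlapped (0.19 ± 0.27, 95% interval -0.35 to 0.74), and estradiol minus placebo was 0.44 ± 0.27. Esr2, the aromatase gene Cyp19a1 and the target Greb1 reached at most 0.610, 1.05 and 0.590 TPM in intact and estradiol mice and did not pass the filter on low values.

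Of the 14 tested estrogen and progesterone receptors and coregulators, 10 lay below 0 (65.3% of all genes did), with a relative median of -0.14 and 2 at an unadjusted p under 0.05, Esr1 among them. Gper1, named Gpr30 in the table, averaged 2.69 ± 0.95 and 1.75 ± 0.75 TPM (-0.52 ± 0.33). Of 22 tested genes known to respond to estradiol, 16 lay below 0 and the relative median was -0.10. The list held 2 at an unadjusted p under 0.05, Prl, described next, and Myc, a growth-promoting transcription factor. Myc lay at 4.45 to 5.32 TPM in intact and 2.13 to 3.72 TPM in estradiol mice, without overlap (-0.66 ± 0.28, limma adjusted p = 0.999). Oxtr, the oxytocin receptor, averaged 3.53 ± 1.34 and 2.83 ± 0.62 TPM (-0.22 ± 0.40), a difference within the spread between mice.

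Prl and Gh, hormones of the pituitary, were found in 4 intact mice and hardly in estradiol mice. Prl, prolactin, had 0, 13.9, 23.1, 37.1 and 6.22 TPM in intact mice 64, 65, 66, 77 and 78, and was listed at 0 in 4 estradiol mice with 0.264 TPM in mouse 138. Gh, growth hormone, had 0, 10.6, 8.58, 18.5 and 2.29 TPM in intact mice and was listed at 0 in all 5 estradiol mice. Intact mouse 64 therefore matched the estradiol mice for both, and the same 4 intact mice carried both hormones. On the log2(TPM + 0.5) scale, where values at 0 make a difference depend on the pseudocount, Prl differed by -3.96 ± 0.98 (limma adjusted p = 0.481). Without intact mouse 64 it passed the test (-4.98, limma adjusted p = 0.0266). Placebo mice also lacked both, apart from 1.28 TPM of Prl and 1.66 TPM of Gh in 1 mouse. Of the 7 hormone genes listed, 5 were tested, 3 of them below 0 and 2 above, with a relative median of -0.87. Pomc, which neurons also make, lay higher in value in estradiol mice (mean 3.92 and 8.55 TPM, 1.06 ± 0.58). Summed over the list, the level was 3.80 to 65.4 TPM in intact and 5.14 to 16.7 TPM in estradiol mice. In cocaine mice the list had a relative median of 0.97 in estradiol against intact mice, with 1 member called higher, and 0.94 with 0 called without estradiol cocaine mice 126 and 134. Markers of hypothalamic and thalamic neurons had 11 tested members, a relative median of -0.20 and 1 member at an unadjusted p under 0.05 (Lef1, -1.19 ± 0.34). The part that tissue from outside the punch had in the hormone levels was not tested.

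Small nuclear and nucleolar RNAs held the genes with the highest values on the estradiol side. The sequences of the leading pair are given from the GRCm38 genome at their GENCODE M21 positions. Snord15b (chr7:99479563-99479707, minus strand, 145 bases) is a C/D box RNA, of the class that guides methylation of ribosomal RNA, with its C box TGATGA and D box CTGA in capitals. Rnu12 (chr15:83149644-83149794, plus strand, 151 bases) is the U12 RNA of the minor spliceosome, with the uridine-rich Sm protein site in capitals.
Snord15b: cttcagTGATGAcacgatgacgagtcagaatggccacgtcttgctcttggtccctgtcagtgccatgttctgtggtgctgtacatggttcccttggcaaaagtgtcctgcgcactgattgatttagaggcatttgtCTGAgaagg
Rnu12: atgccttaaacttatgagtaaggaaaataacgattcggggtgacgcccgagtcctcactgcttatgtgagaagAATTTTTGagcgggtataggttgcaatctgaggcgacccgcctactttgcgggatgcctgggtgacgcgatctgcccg
Snord15b was listed at 0 in intact mice 65, 66, 77 and 78 and had 44.5 TPM in mouse 64, against 125, 62.0, 236, 166 and 130 TPM in estradiol mice and 31.3, 72.5, 126, 98.3 and 579 TPM in placebo mice. Estradiol and intact mice did not overlap (6.75 ± 1.48 on the log2(TPM + 0.5) scale, limma adjusted p = 0.381). Without intact mouse 64 the gene passed the test (8.05, limma adjusted p = 0.0266). Snord15b overlaps an exon of the ribosomal protein gene Rps3 on the same strand, and the sharing of fragments between them in the authors' table is not stated, so its level is uncertain. Rnu12, which overlaps no other annotated gene, was listed at 0 in 4 intact mice with 13.7 TPM in mouse 78, against 54.2, 125, 36.6, 157 and 36.4 TPM in estradiol mice (6.13 ± 1.40, limma adjusted p = 0.381). Again no intact mouse reached an estradiol mouse.

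Of 38 tested genes that GENCODE classes as small nuclear or nucleolar RNAs, 25 lay above 0 (34.7% of all genes did), 7 had an unadjusted p under 0.05 and were higher (0.684% of all genes), and the relative median was 1.28. Rnu11, the U11 RNA of the same spliceosome, was listed at 0 in all 5 intact mice and in estradiol mice 130 and 138, with 81.6, 130 and 67.0 TPM in the other 3; it overlaps an exon of a gene on the other strand, and whether counting used strand is not given in the sources used here. Snora30 was likewise at 0 in all intact mice and at 167, 79.8 and 86.0 TPM in estradiol mice 122, 132 and 138. Snord88c had its highest value, 3557 TPM, in an intact mouse and was listed at 0 in 3 mice of each group. The summed level of the class was 541 to 4258 TPM in intact and 1634 to 2861 TPM in estradiol mice, so the groups overlapped in total. Between estradiol and intact cocaine mice 20 of the 38 lay below 0, where 85% of all genes did. There 3 had an unadjusted limma p under 0.05, against 63.5% of all genes, and the relative median was 0.74. Those values include estradiol cocaine mice 126 and 134. These RNAs are short, and how the library kit and size selection treated them is not given in the sources used here.

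**Figure D4:**
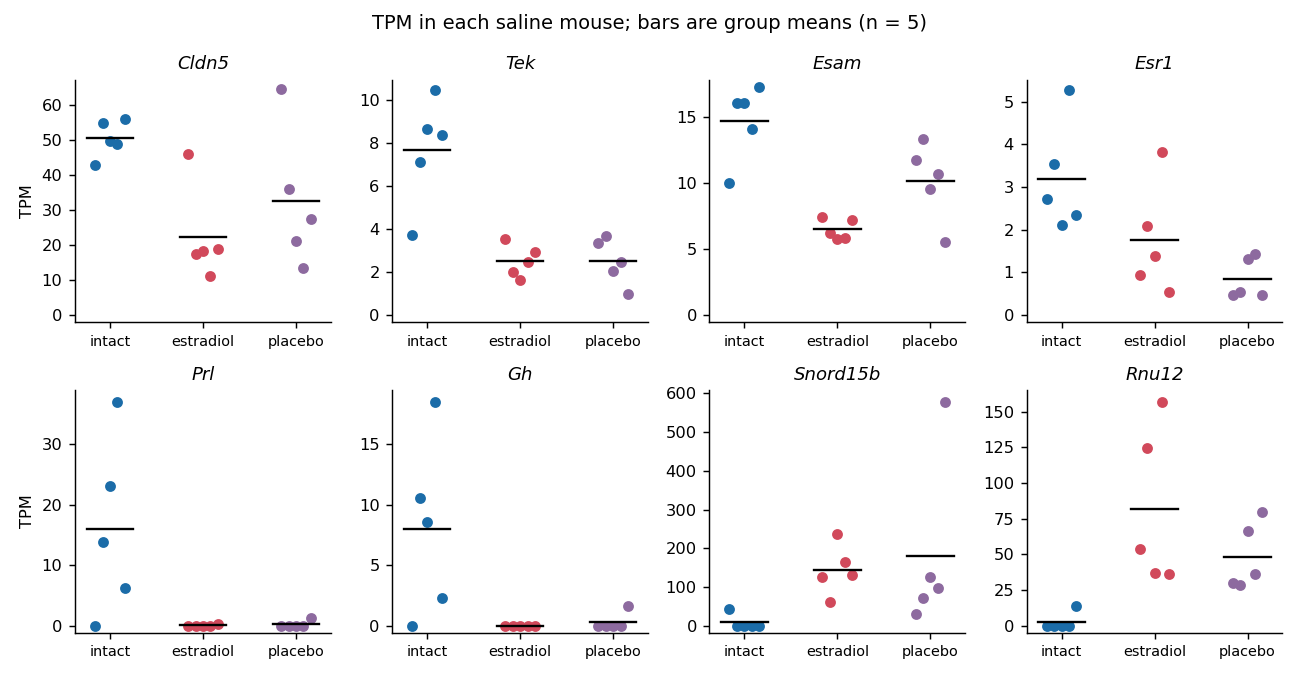
TPM (y axis, linear, scaled to each gene) in each saline mouse of the intact, estradiol and placebo groups (x axis), with bars at the group mean (n = 5). Cldn5, Tek and Esam lie lower in estradiol mice, Prl and Gh are near 0 outside the intact group, and Snord15b and Rnu12 are near 0 in all but 1 intact mouse.

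Genes of the accumbens projection neurons lay close to the intact level. Of 24 markers of striatal projection neurons, 23 lay below 0, but the relative median was -0.12 and 0 had an unadjusted p under 0.05; with each library centred on its median gene 16 lay below 0. Drd1a, the D1 receptor, averaged 178 ± 37.9 TPM in intact and 158 ± 35.2 TPM in estradiol mice (-0.18 ± 0.30, 95% interval -0.79 to 0.43). Drd2 averaged 148 ± 32.2 and 118 ± 33.8 TPM (-0.35 ± 0.37, interval -1.10 to 0.40). Penk differed by -0.11 ± 0.25 (interval -0.61 to 0.39), Ppp1r1b, the phosphoprotein DARPP-32, by -0.05 ± 0.25 (interval -0.57 to 0.46) and Adora2a, an adenosine receptor that D2 neurons carry, by -0.13 ± 0.27 (interval -0.68 to 0.41), and all 3 changed sign when libraries were centred. These intervals allow differences of about the size of the interval bounds in either direction. Tac1, the substance P precursor of D1 neurons, was higher in value at 681 to 1008 TPM in estradiol against 484 to 778 TPM in intact mice (0.44 ± 0.23, limma adjusted p = 0.999). Drd3, the D3 receptor of ventral striatum, had 4.73, 11.2, 14.4, 6.73 and 9.99 TPM in intact, 4.61, 6.41, 8.84, 6.92 and 4.37 TPM in estradiol and 0, 4.08, 5.88, 3.42 and 1.24 TPM in placebo mice. The estradiol mice overlapped both other groups.

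Genes of protein synthesis and respiration had relative medians above 0. All 79 cytosolic ribosomal protein genes lay above 0 (34.7% of all genes did), with a relative median of 0.32 and 1 at an unadjusted p under 0.05, Rpl26 (0.75 ± 0.31). Of 75 genes of oxidative phosphorylation, 72 lay above 0, with a relative median of 0.35 and 1 at an unadjusted p under 0.05, Ndufb5, a subunit of complex I (0.35 ± 0.17). Without intact mouse 64 the relative medians were 0.56 and 0.55. The transcript length of a gene moved with these differences: in 4 bins from the shortest to the longest tested genes, 3762 in each, the median log2 difference was 0.03, -0.08, -0.14 and -0.24, at median transcript lengths of 1440, 2728, 3977 and 6269 bases. The endothelial markers ranged from 844 bases for Ly6c1 to 6895 for Flt1. The longest were Tek (4654), Abcb1a (4997), Kdr (5924) and Flt1. The shortest were Ly6c1, Cldn5 (1416), Itm2a (1744), Esam (1865) and Egfl7 (1865). Among these, Itm2a and Egfl7 had the smallest differences of the list and Cldn5 one of the largest. The part of transcript length in the endothelial difference was not tested. The cause of the length pattern was not tested.

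Among astrocyte markers 12 of 14 lay above 0, against 34.7% of all genes, with a relative median of 0.29. Gjb6, a gap junction protein, averaged 41.5 and 64.0 TPM (0.62 ± 0.34), and S100b 188 and 252 TPM (0.38 ± 0.21), and 0 of the 14 had an unadjusted p under 0.05. Microglial markers had 11 of 14 above 0, against the same 34.7%, and a relative median of 0.27, and 10 of 12 complement and MHC genes lay above 0 with a relative median of 0.39. The summed level of the microglial list was 903 to 1008 TPM in intact and 899 to 1222 TPM in estradiol mice. Blood markers had the highest relative median of the 38 gene lists, 0.79, with 3 of 7 tested members higher at an unadjusted p under 0.05 (0.684% of all genes). Hbb-b1, a beta globin, had 83.4, 52.5, 50.2, 34.9 and 46.4 TPM in intact and 114, 43.8, 181, 103 and 122 TPM in estradiol mice (0.99 ± 0.35). All estradiol mice except 124 lay above every intact mouse. Beta-s, a near-identical beta globin between which and Hbb-b1 fragments could be split, averaged 296 and 482 TPM (0.68 ± 0.33), and S100a9, a neutrophil protein, was listed at 0 in all intact mice and reached 15.3 TPM in estradiol mouse 130. Summed over the blood list, the level was 336 to 557 TPM in intact and 427 to 1029 TPM in estradiol mice, so the groups overlapped, with estradiol mouse 124 inside the intact range.

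Ptgds, the prostaglandin D synthase of meninges and oligodendrocytes, had 445 to 660 TPM in intact mice and 4038, 733, 516, 2370 and 1378 TPM in estradiol mice (1.34 ± 0.54, limma adjusted p = 0.999). All estradiol mice except 130 stood above the intact range, and placebo mouse 121 reached 6043 TPM. Gfap, the astrocyte filament, was highest at 163 TPM in mouse 122 and 185 TPM in mouse 121 against 31.8 to 81.3 TPM in the other saline mice of these 3 groups. Markers of cortical excitatory neurons had 12 of 16 above 0 (34.7% of all genes were) and a relative median of 0.34. They summed to 749 to 916 TPM in intact mice, to 1640, 713, 717, 923 and 1567 TPM in estradiol mice and to 2315, 1328, 848, 1480 and 1313 TPM in placebo mice. Mice 122 and 138 stood well above the intact range, while mouse 132, with high Ptgds, lay just above it. The part of these levels in the other results was not tested.

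Outside the lists, the smallest p belonged to 1700047M11Rik, a long non-coding RNA on chromosome 1. It had 26.7, 21.8, 22.9, 34.4 and 23.9 TPM in intact and 10.3, 15.9, 10.7, 12.4 and 12.4 TPM in estradiol mice. All estradiol mice lay below all intact mice (-1.04 ± 0.21, limma adjusted p = 0.183). Placebo mice, at 11.9 to 25.8 TPM, overlapped both, and in cocaine mice the difference was -0.09 ± 0.21. Syne4, a nuclear envelope protein that links the nucleus to kinesin, lay at 4.48 to 7.88 TPM in intact and 1.27 to 2.58 TPM in estradiol mice (-1.46 ± 0.36, limma adjusted p = 0.481), with -1.28 in placebo mice and -1.34 ± 0.36 in cocaine mice. On the higher side, Scrg1, a secreted protein first found in scrapie-infected brain, had 66.1 to 107 TPM in intact and 115 to 210 TPM in estradiol mice (0.75 ± 0.21, limma adjusted p = 0.729). The groups of Syne4 and of Scrg1 did not overlap.

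The remaining lists are given by their counts, beside 65.3% of all genes below 0, 34.7% above 0 and 3.41% lower at an unadjusted p under 0.05. Chromatin modifiers had 24 of 26 below 0, a relative median of -0.21 and 4 lower at an unadjusted p under 0.05, among them Mll2, a histone methyltransferase (-0.97 ± 0.38), and Hdac7, a histone deacetylase (-0.86 ± 0.36). Extracellular matrix genes had 16 of 22 below 0, near the share of all genes, a relative median of -0.21 and 3 lower at that level, with Col6a1 averaging 180 and 79.1 TPM (-1.43 ± 0.48) and Col4a2, a basement membrane collagen, at 17.4 and 8.84 TPM. Mature oligodendrocyte markers had 14 of 16 below 0 and a relative median of -0.11. Fa2h, an enzyme of myelin lipid synthesis, lay at 41.4 to 52.1 TPM in intact and 26.6 to 32.7 TPM in estradiol mice without overlap (-0.72 ± 0.31). Immediate-early genes had a relative median of -0.06 with 1 of 24 at an unadjusted p under 0.05 (Nr4a1, -0.82 ± 0.40), and Fosb, a marker of repeated drug exposure, differed by -0.36 ± 0.45. Of 15 glucocorticoid response genes 12 lay above 0, with a relative median of 0.21, and of 17 interferon response genes 4 did, with a relative median of -0.04.

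**Figure D5:**
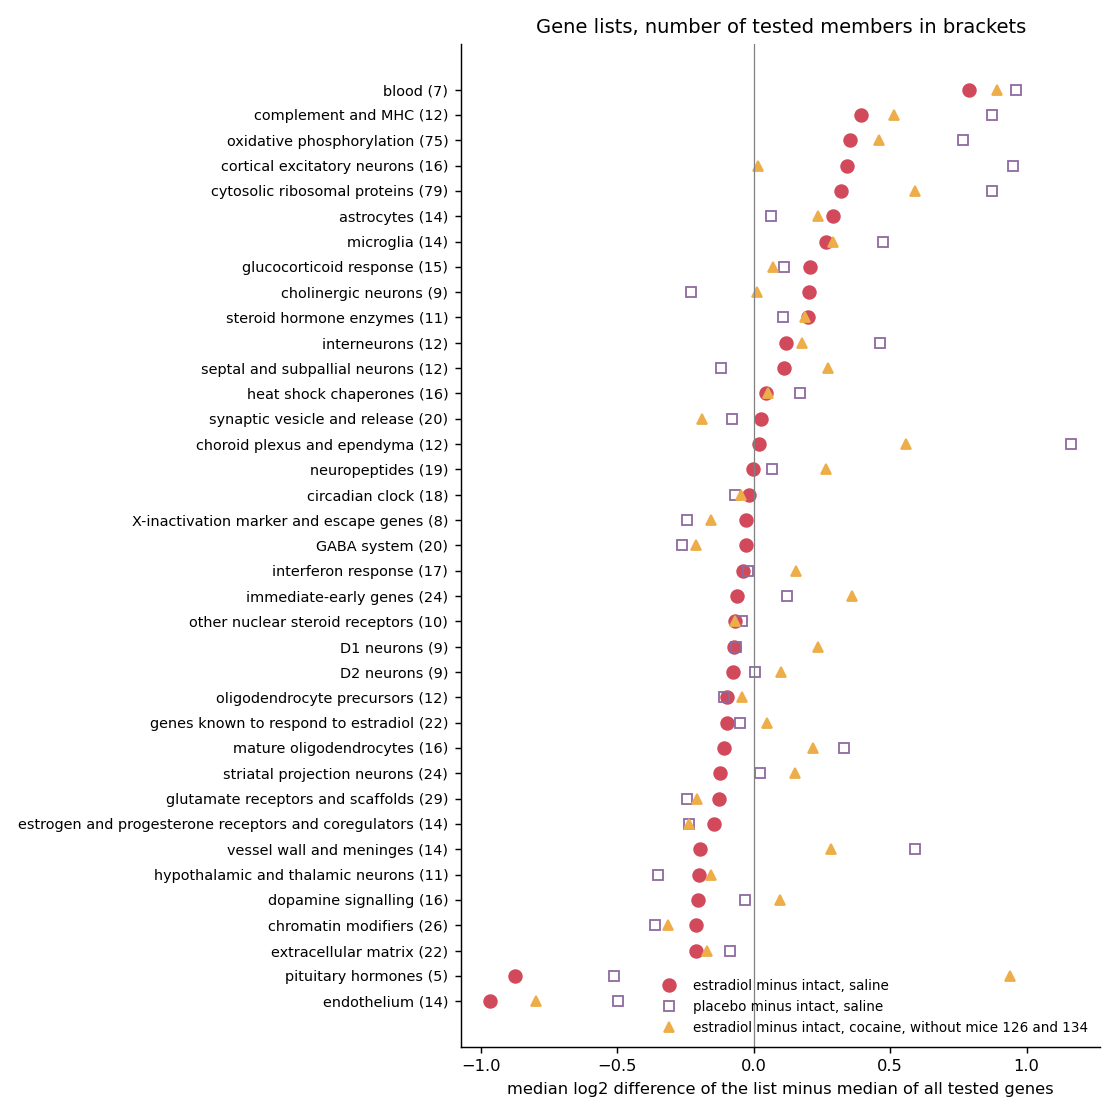
Relative median log2 difference (x axis) of each gene list (y axis, tested members in brackets) for estradiol minus intact saline mice (circles), placebo minus intact saline mice (squares) and estradiol minus intact cocaine mice without mice 126 and 134 (triangles). The circle of the endothelial list lies farthest to the left at -0.97 and that of the blood list farthest to the right at 0.79.

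Placebo mice, which share the surgery but not the hormone, show which differences were also there without estradiol. Placebo minus intact uses the same intact mice and estradiol minus placebo the same estradiol mice, so the values stand side by side and are not independent. In placebo minus intact limma called 0 genes (0%). There 2927 genes passed 0.05 before adjustment (19.3%), and the median gene lay at -0.37. In estradiol minus placebo it called 0 (0%), 377 passed 0.05 before adjustment (2.48%), and the median was 0.23. The endothelial list had 14 of 14 below 0 in placebo minus intact, 9 of them at an unadjusted p under 0.05 (16.8% of all genes were lower by that rule), with a relative median of -0.50. Between estradiol and placebo 7 of 14 lay below 0 (24.4% of all genes did), the relative median was -0.21, and 0 passed 0.05 before adjustment. In placebo minus intact the relative median was 1.67 for small nuclear and nucleolar RNAs, 0.96 for blood and 0.95 for cortical excitatory neurons. It was 0.87 for ribosomal proteins, 0.87 for complement and MHC, 0.77 for oxidative phosphorylation and 0.48 for microglia. These values exceed those of estradiol minus intact, whereas astrocytes (0.07) and glucocorticoid response (0.11) lay below theirs. Placebo mouse 137 stood apart, with 20.2% of TPM in ribosomal protein genes against 10.0% to 14.3% in the other placebo mice. Its summed small RNA level was 4546 TPM against 799 to 1570 TPM, and its summed astrocyte level 2181 TPM against 3309 to 4167 TPM. The part of mouse 137 in these list values was not tested. For the small RNAs estradiol minus placebo had a relative median of -0.41. Cldn5 lay at 64.7, 36.1, 21.1, 13.4 and 27.4 TPM in placebo mice, and Tek at 3.37, 3.67, 2.04, 2.48 and 0.960 TPM. For Tek the placebo and estradiol means were 2.50 ± 1.09 and 2.51 ± 0.765 TPM, a difference of 0.05 ± 0.41 on the log2 scale.

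In cocaine mice, which share no library with the saline mice, estradiol minus intact gave 8434 called genes (55.5%), 7840 that fell (51.6%) and 594 that rose (3.91%), with a median of -0.74. That count rested on 2 libraries, since limma called 0 without estradiol cocaine mouse 126, 14 without mouse 134 and 0 without both. With libraries centred on their median gene 864 were called lower and 2150 higher. Endothelial markers had 12 of 14 called lower and a relative median of -0.69. Without mice 126 and 134, 14 of 14 lay below 0, 9 had an unadjusted p under 0.05 (4.09% of all genes were lower by that rule), and the relative median was -0.80. Ly6c1 lay at 62.5 to 126 TPM in intact and 32.6 to 40.8 TPM in estradiol cocaine mice, and Esam at 11.2 to 20.5 and 3.10 to 9.28 TPM. In both genes the groups did not overlap, as in saline mice. Of the 4 endothelial markers without overlap in saline mice, these 2 alone also lay lower without overlap in cocaine mice. There 16.1% of all genes lay lower without overlap.

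Of the 196 genes that lay lower without overlap in saline mice, 31 also did in cocaine mice, 15.8% of the saline set and 1.27% of the 2445 in cocaine mice, where 16.1% of all genes did so. The shared share is thus near the background. Of the 50 that lay higher, 3 did again, 6.00% of the saline set and 1.28% of the 234 in cocaine mice, where 1.54% of all genes did. The difference between the saline and the cocaine comparison was tested directly, and limma called 0 genes (0%), with 2094 at an unadjusted p under 0.05 (13.8%). Among endothelial markers 0 of 14 had an unadjusted p under 0.05 for this difference, which was -0.42 ± 0.50 for Cldn5 and 0.71 ± 0.66 for Pecam1. In cocaine mice with placebo against intact cocaine mice, the relative median of the endothelial list was -0.72.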

How the data were processed

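RNA of accumbens punches was sequenced from 40 mice in 8 groups of 5. The submitters' processing notes list, without roles, the mm10 build, limma, DESeq2, Cuffdiff 2.2.0 and Cufflinks 2.2.0, and also TopHat2 2.0.9 and Bowtie2 2.1.0.0. The deposited table is named for FPKM, but every column sums to 1e+06, so the values the authors deposited were read as TPM, which keep no depth; depth per value is unknown and no counting interval is given. Of 23349 entries, 27 named by a date (0.191% to 0.252% of TPM in the libraries compared) were left out. All 40 columns were matched to a sample. Male mouse 69 carried a saline code in its column name and was taken as a cocaine mouse from its sample title.

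TPM were taken as log2(TPM + 0.5), so differences of low genes are understated. Genes at 1 TPM or more in at least 5 libraries (15196) entered a limma model (version 3.58.1, under R 4.3.3) with trend and robust estimation, 8 group means and 32 residual degrees of freedom, and p-values were adjusted over all genes by Benjamini-Hochberg at 0.05. The procedure was tested on simulated data with independent normal noise for each gene. The simulation held no outlying libraries, so it cannot show how the procedure behaves with them. Library properties were tested by exact permutation. Positions and classes come from GENCODE M21 (GRCm38), which held 98.5% of names, and promoters from RefSeq (GRCm38.p6). Named genes were the 15 of smallest p per direction with a group mean of at least 5 TPM and a panel of hormone and striatal genes. To these were added the members of smallest and next smallest p in each of 38 lists and all endothelial markers. Xist and Y-linked genes were added as a check of the labels. Gkn3, Rnu11, Snora30, Snord88c, Lum, Slc6a13, Pomc and Beta-s, where outside this rule, were chosen after their values were seen. The members and lists were chosen with earlier results of these data known. Alternatives changed the pseudocount, filter, samples in the fit, scaling, covariate, weights and libraries. Some genes of the panel and lists are not reported here.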

Additional observations from a re-analysis of the deposited data

Results flagged for a closer look

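In 34 of 260 groups of 5 values examined, 1 mouse lay far from the other 4. The rule used flags about 1 in 20 groups only where values are independent and normally distributed. The groups share libraries, and in several flagged groups the other 4 mice had the same listed TPM. The number of flagged groups therefore cannot be set against 1 in 20. The causes were not tested.

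Intact mouse 64 accounts for many of these. Its ribosomal protein share was 14.2% and its median log2 level 3.94. Its values were lower than in the other intact mice for Cspg4 (3.72 TPM), Grik3 (17.7 TPM), Grin1 (156 TPM), Hdac7 (8.79 TPM), Kdm5c (16.4 TPM), Pecam1 (4.09 TPM), Rgs5 (26.6 TPM), Slc2a4rg-ps (6.79 TPM), Thbs3 (9.39 TPM) and Unc13a (49.6 TPM), and Isg15 was listed at 0. They were higher for Rpl7 (1362 TPM), Snora74a (16.3 TPM) and Snord15b (44.5 TPM).

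Intact mouse 77 was low in Adora2a (153 TPM) and Ppp1r1b (1001 TPM) and high in Tsc22d3 (103 TPM). Its Y-linked values were 3.46 TPM for Ddx3y, 3.68 TPM for Eif2s3y, 1.28 TPM for Kdm5d and 0.915 TPM for Uty. Intact mouse 66 was low in Cryab (164 TPM), and intact mouse 78 was the only intact mouse with Rnu12 (13.7 TPM).

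Estradiol mouse 122 was high in Chat (28.6 TPM), Cldn5 (46.1 TPM), Grin2d (9.15 TPM) and Pecam1 (7.03 TPM). Estradiol mouse 124 was high in Oxt (205 TPM), mouse 130 in S100a9 (15.3 TPM) and Kdm5d (0.0312 TPM), mouse 132 in Otp (0.622 TPM) and mouse 138 in Prl (0.264 TPM).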

How the results depend on the processing

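The relative median of the endothelial list kept its direction in every setting run, at -1.13 to -0.88 when each library was left out. In estradiol against intact saline mice limma called 2 genes with the ribosomal share in the model, 2 without the 4 least correlated libraries, 2251 with array weights, and 0 to 2 when each library was left out, the 2 without intact mouse 64 being Prl and Snord15b. For placebo against intact mice it called 1 gene without a filter and 6802 with array weights, and for estradiol against placebo 1 without a filter. In cocaine mice it called 2 genes when only those groups were fitted, 3014 after centring, 0 with the ribosomal share in the model, 4631 with array weights, 0 without the 4 least correlated libraries, 0 without mice 126 and 134, and 0 to 10131 when each library was left out. The difference in ribosomal share ranged from 0.65 to 2.50 points and that of the median level from -0.28 to -0.11 when each library was left out. The causes were not tested.

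Some named genes with a log2 difference near 0 changed sign. After centring the values were 0.0284 for Adora2a, 0.16 for Dbp, 0.0497 for Penk and 0.11 for Ppp1r1b. With the ribosomal share in the model Dbp was at 0.0749. With array weights they were 0.0686 for Adora2a, -0.21 for Bdnf, -0.0451 for Cyp11a1, 0.0781 for Dbp, 0.00582 for Penk and 0.14 for Ppp1r1b. When each library was left out, Adora2a ranged from -0.26 to 0.0147, Dbp from -0.0961 to 0.0730, Ppp1r1b from -0.16 to 0.0733 and Xist from -0.52 to 0.0505. Without estradiol mouse 122 and intact mouse 64 together, a setting chosen after seeing the data, as was leaving out mice 126 and 134 together, Bdnf was at -0.0771, Cyp11a1 at -0.000662, Isg15 at -0.13 and Ppp1r1b at 0.00678. The relative median of the pituitary list was -2.0 with a pseudocount of 0.1 and -3.17 with a filter at 5 TPM, and that of the Y-linked list -1.76 with a pseudocount of 0.1. No paired analysis was possible because the groups share no replicate numbers. Depth is not recoverable from TPM, so a listed 0 sets no limit.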
